A study of Triticum aestivum with 24 samples.

Results

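Leaf sheath transcripts that were low in the wheat *idd5* mutant but little changed in the dwarf line *Rht-D1b* were examined. Of 107891 gene models, 22 had all 8 *idd5* libraries below all 16 others, with little difference between *Rht-D1b* and Cadenza and little effect of gibberellin (GA) in Cadenza. Of these genes, 14 lay on chromosomes 2A, 2B and 2D, which carry the IDD5 homoeologues. Their mean level in *idd5* was between 20.7% and 64.7% of that elsewhere, so some transcript was still assigned to each model there. Each lay apart from the run of low genes on chromosome 2A that the choice left out.

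The libraries were made from leaf sheath tissue of 7-d-old seedlings, 8 h after water or 100 µM GA3 was applied, with 4 biological replicates for each of 6 combinations of genotype and treatment. Cadenza is the wild type and the background of both mutants. The line *idd5* joins 3 chemically induced (EMS) lesions, premature stops in the A and D homoeologues of IDD5 and a splice donor change in the B homoeologue, after 3 backcrosses to Cadenza, and *Rht-D1b* is a near-isogenic line with a DELLA protein that GA cannot remove. The comparison used Cadenza and not the wild-type sister line of *idd5*, so the loss of IDD5 cannot be told apart from any other difference that the *idd5* line carries.

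DELLA proteins are growth repressors that act through other transcription factors. GA binds its receptor GID1, and the complex marks DELLA for degradation, which lets stems and leaf sheaths elongate. IDD5 is a zinc-finger transcription factor of the INDETERMINATE DOMAIN family, whose members bind both DNA and DELLA. Both mutant lines are dwarf. The genes described here are those low in *idd5* whose mean in *Rht-D1b* stayed within 1.3-fold of that in Cadenza, so some are slightly lower there too.

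The members were chosen on the TPM of the same libraries. TPM is a transcript abundance per length and relative to its library, so levels of different genes can be compared. The highest of the 8 *idd5* values had to be below the lowest of the 16 others, as it was for 152 gene models. The ratio of the 16 to *idd5*, as (mean + 0.5) over (mean + 0.5), had to be at least 1.5, which left 103, and the mean of the 16 at least 2 TPM, which left 86. The ratio of *Rht-D1b* to Cadenza had to lie within 1.3-fold, which left 71, and that of GA3 to water in Cadenza likewise, which left 63. Of these, 41 lay between TraesCS2A02G267900 and TraesCS2A02G277100, an interval of 91 gene models on chromosome 2A that was excluded, and 22 remained. The upper limit of 150 genes was not reached. Since these values chose the genes, the difference between *idd5* and the other genotypes is a description and was not tested on them.

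Values near the limits were as follows. The smallest ratio among the members was 1.54, and the next gene below the limit had 1.49. The lowest mean of the 16 was 3.25 TPM, and the next gene outside had 1.61 TPM. The ratio of *Rht-D1b* to Cadenza ran from 0.772 to 1.21 among the members, with 0.735 and 1.52 just outside. For GA3 to water in Cadenza it ran from 0.803 to 1.13, with 0.712 and 1.39 just outside. The smallest separation was a lowest other library at 1.01 times the highest *idd5* library, and 98 genes met every other condition but overlapped.

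The deposited identifiers could not be paired with gene names. Of the identifiers of the table, 0 were found in the reference gene table and 0 in the gene lists of the study, which use another release. Only the 3 IDD5 and 3 RHT1 genes carry a name here, and none of them is a member. The members are therefore ranked by their ratio from 1 to 22 and described by rank, chromosome and distance from IDD5. An identifier is printed for the member of the largest ratio and for that of the highest level. No marker check of the tissue and no grouping by function was made.

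**Figure D1:**
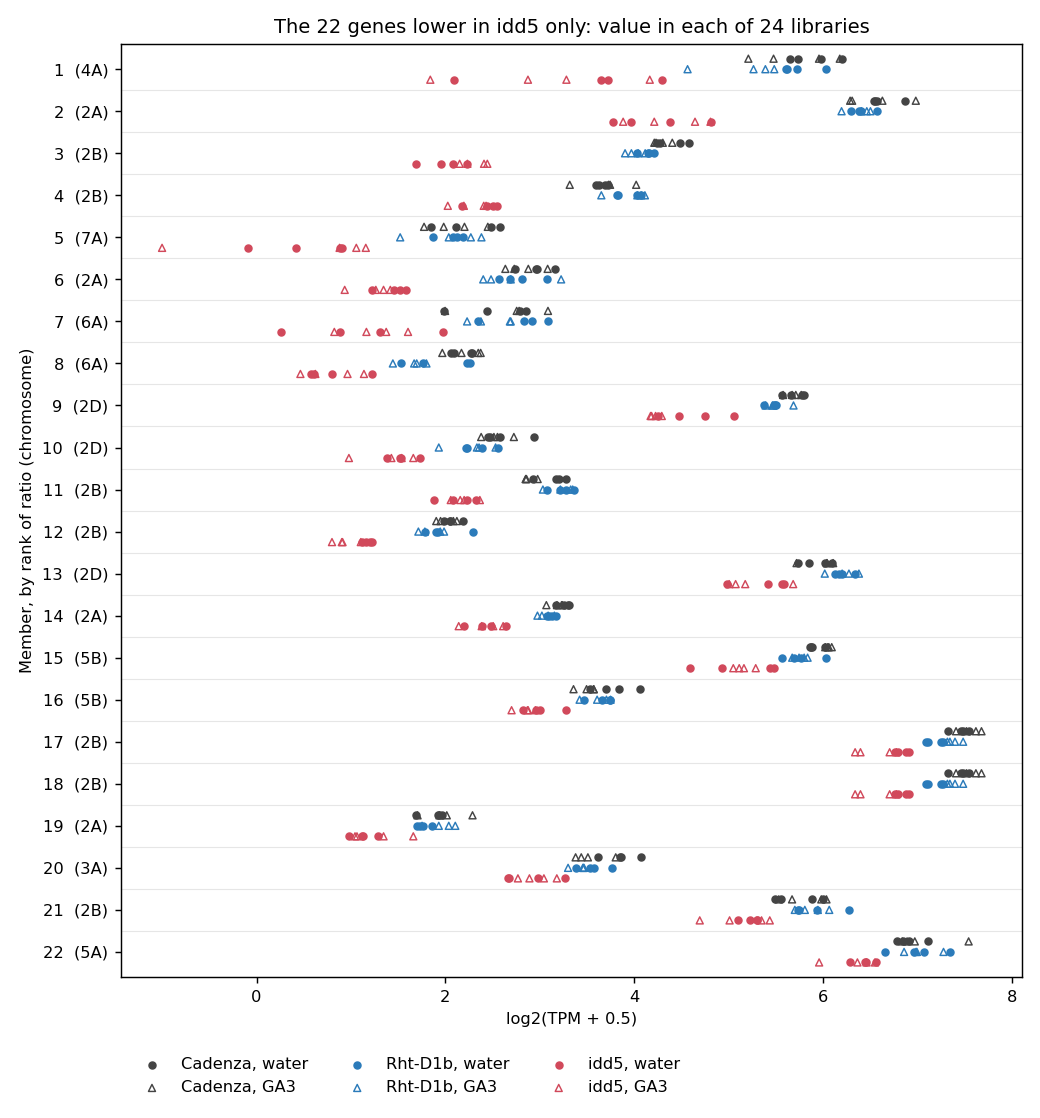
The value of each of the 22 members in each library, as log2(TPM + 0.5) on the horizontal axis, with a row for each member, ranked by ratio, filled circles for water and open triangles for GA3. Red points (*idd5*) lie to the left of all black (Cadenza) and blue (*Rht-D1b*) points in every row, as the choice requires, with a gap that is wide for ranks 2 and 3 and very narrow for ranks 7, 13, 19 and 20.

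The 3 strongest members had ratios above 3. TraesCS4A02G431400 (rank 1, ratio 4.66) had 72.97, 62.5, 49.5 and 52.61 TPM in water-treated Cadenza and 71.77, 61.55, 43.95 and 36.45 TPM in GA-treated Cadenza. In *Rht-D1b* it had 52.46, 48.67, 64.98 and 48.14 TPM with water and 37.87, 44.18, 41.37 and 23.15 TPM with GA3. In *idd5* it had 12.02, 3.77, 12.68 and 19.06 TPM with water and 17.42, 9.22, 6.83 and 3.08 TPM with GA3. This was the most variable member, with a coefficient of variation of 56.1% over the *idd5* libraries and 26.5% over the others, and a single *Rht-D1b* library at 23.15 TPM came close to the highest *idd5* value of 19.06 TPM.

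Rank 2, on chromosome 2A, was an abundant transcript, with 90.6 ± 14.0 TPM (SD, n = 16) outside *idd5* and 20.1 ± 5.89 TPM (SD, n = 8) in it. Its values outside *idd5* had a minimum of 72.72, a median of 88.8 and a maximum of 125.76 TPM. In *idd5* they were 27.68, 15.09, 13.2 and 20.26 TPM with water and 14.24, 24.48, 27.48 and 18.02 TPM with GA3. The groups lay far apart, as the lowest other library had 2.63 times the highest *idd5* library.

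Rank 3, on chromosome 2B, was the most cleanly separated gene. It had 20.6 ± 2.41 TPM with water and 19.0 ± 1.19 TPM with GA3 in Cadenza, and 17.1 ± 0.92 and 15.6 ± 1.03 TPM in *Rht-D1b* (SD, n = 4 each). In *idd5* it had 3.74, 2.72, 4.19 and 3.36 TPM with water and 4.94, 4.20, 4.81 and 3.94 TPM with GA3. The lowest other library had 2.93 times the highest *idd5* library, the widest relative gap of the 22.

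Ranks 4 to 9 had ratios between 2 and 3. Rank 4, on 2B, had 13.7 ± 2.15 TPM (SD, n = 16) elsewhere and 4.60 ± 0.63 TPM (SD, n = 8) in *idd5*. It was somewhat higher in *Rht-D1b* than in Cadenza, by a ratio of 1.21, the largest such ratio of the members. Rank 6, on 2A, had 6.64 ± 1.21 TPM (SD, n = 16) elsewhere and 2.06 ± 0.34 TPM (SD, n = 8) in *idd5*. Rank 9, on 2D, had 47.7 ± 4.66 TPM (SD, n = 16) elsewhere and 21.5 ± 5.43 TPM (SD, n = 8) in *idd5*. For these 3 genes the lowest other library had between 1.25 and 1.92 times the highest *idd5* library.

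The other members of this range were low and off chromosome group 2. Rank 5, on 7A, had a median of 3.83 TPM over the 16 others and 1.35 TPM in *idd5*. Its GA3 replicate 3 in *idd5* was listed at 0 TPM, the only 0 among the 176 *idd5* values. Ranks 7 and 8, on 6A, had medians of 6.11 and 3.71 TPM elsewhere and 1.86 and 1.14 TPM in *idd5*. For rank 7 the gap was only 0.03 TPM, between 3.46 TPM in replicate 1 of water-treated Cadenza and 3.43 TPM in replicate 3 of water-treated *idd5*. GA-treated Cadenza replicate 1 was nearly as low, at 3.49 TPM.

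The remaining 13 members had ratios under 2. On 2D, rank 10 had a mean of 5.02 TPM elsewhere and 2.30 TPM in *idd5*, and rank 13 had medians of 68.1 and 38.9 TPM. On 2B, rank 11 had medians of 8.62 and 4.03 TPM and rank 12 had 3.41 and 1.66 TPM. These last 2 genes were tight in both groups, with coefficients of variation between 11.9% and 14.0%. Rank 21, also on 2B, had 56.9 TPM elsewhere and 37.9 TPM in *idd5*. On 2A, rank 14 had 8.45 and 4.91 TPM and rank 19 had 3.30 and 1.68 TPM. Rank 14 varied least outside *idd5*, with a coefficient of variation of 7.08%.

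Ranks 17 and 18, neighbouring models on 2B, had the highest level of the members. For TraesCS2B02G500700 the values with water were 175.08, 185.63, 159.81 and 177.99 TPM in Cadenza, 135.39, 137.58, 153.24 and 151.84 TPM in *Rht-D1b* and 108.23, 119.4, 116.59 and 110.54 TPM in *idd5*. With GA3 they were 182.67, 169.17, 195.76 and 203.95 TPM in Cadenza, 158.68, 161.64, 167.84 and 178.19 TPM in *Rht-D1b* and 80.39, 83.62, 109.03 and 103.7 TPM in *idd5*. Cadenza was highest, *Rht-D1b* lay between and *idd5* was lowest in both treatments. The next model in identifier order had the same value in all 24 libraries, as 217 of the 63241 genes tested (0.343%) have with another gene. The values cannot show which of the models was transcribed, and the 22 members hold 21 different sets of values.

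Off group 2, ranks 15 and 16 lay 2 tested genes apart on 5B. Rank 15 had a median of 57.8 TPM elsewhere and 34.7 TPM in *idd5*, and rank 16 had 11.9 and 7.04 TPM. The gene between them also had a ratio of 1.53 but a mean of only 0.599 TPM and overlapping groups. Rank 20, on 3A, had 11.0 TPM elsewhere and 7.14 TPM in *idd5*, and rank 22, on 5A, had 125 and 86.9 TPM. Ranks 13, 19, 20 and 21 had a lowest other library at most 1.04 times the highest *idd5* library, so small shifts in 1 library decide whether they belong.

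Over the 22 members the median ratio was 1.93. In limma's test across all genes, at an adjusted p-value under 0.01, 19 were lower in *idd5* than in Cadenza with water and 22 with GA3, where 1.93% and 4.84% of all genes tested were lower. Against *Rht-D1b*, 15 were lower with water and 16 with GA3, where 0.25% and 0.381% of all genes were. The choice used these contrasts, so nothing is read from these counts. In *Rht-D1b*, 16 of the 22 had a lower mean than in Cadenza, with a median ratio of 0.912. The choice held this ratio within 1.3-fold in either direction, which limits its size and does not set its sign. The share of all genes that were lower in *Rht-D1b* is not given, so nothing about the members is read from this count.

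All 22 members passed the filter for testing, at least 0.5 TPM in 4 libraries. Their level spanned a wide range, with 9 genes under 10 TPM outside *idd5*, 5 between 10 and 50 TPM and 8 above. The median of their means was 12.9 TPM, against 7.46 TPM for the 43342 tested genes with the same minimum of 2 TPM. The ratio and the lack of overlap, both conditions of the choice, were computed on these same values, so this difference is not read as a trait of the members. The median coefficient of variation was 14.6% over the 16 others and 17.3% over the *idd5* libraries, where their TPM is lower.

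Position was not used by the choice, except for the excluded interval. Chromosome 2B held 7 members, including the 2 models with the same values, 2A held 4 and 2D held 3. Together these were 63.6% of the members, where 16.0% of the tested genes outside the interval lie on these chromosomes. The other 8 members lay on 5B (2), 6A (2), 3A, 4A, 5A and 7A. Chromosomes 1A, 1B, 1D, 3B, 3D, 4B, 4D, 5D, 6B, 6D, 7B and 7D held none. Their shares of all genes tested ran from 3.80% on 6D to 5.47% on 5D. With 22 members, a 0 at such a share is not read as a result. The D subgenome held 3 members, all on 2D, where 32.8% of all genes tested are D genes.

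The same thresholds were applied in other ways for comparison. Genes higher in *idd5* only numbered 25, of which 4 (16.0%) lay on group 2 and 11 on 5B. Chromosome 5B holds 5.29% of all genes tested. Genes lower in *Rht-D1b* only numbered 28, of which 3 (10.7%) lay on group 2, while 7 lay on 5D, 6 on 4D and 5 on 4A. Chromosomes 5D, 4D and 4A hold 5.47%, 3.87% and 4.55% of all genes tested. These shares were not tested, and the lists share all their libraries. Among all 152 gene models with *idd5* below the 16 others, 58 lay in the 2A interval, 34 elsewhere on group 2 and 60 on other chromosomes.

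**Figure D2:**
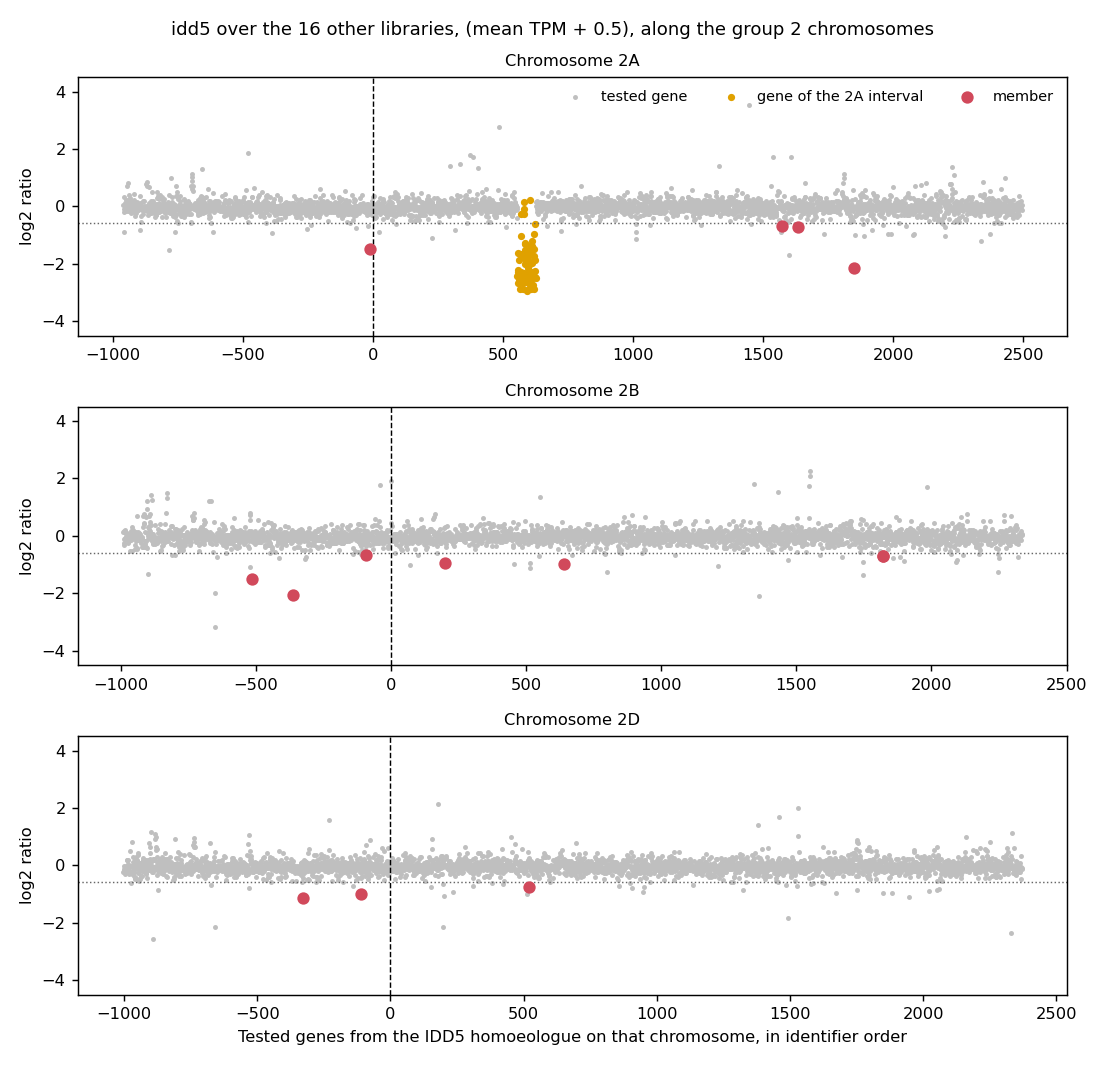
Each tested gene of chromosomes 2A, 2B and 2D by its place in identifier order, counted in tested genes from the IDD5 homoeologue (dashed line), with the log2 ratio of *idd5* to the 16 other libraries on the vertical axis and the ratio limit of 1.5 as a dotted line. The members (red) lie at many places, 6 before and 8 after IDD5, while the genes of the excluded 2A interval (yellow) form 1 block 556 to 626 tested genes after IDD5-A1. All lie singly except ranks 17 and 18, which are adjacent on 2B and have the same values.

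The group 2 members lay at many distances from IDD5. Distance was counted in tested genes along the identifiers. The nearest was rank 6, which lay 11 tested genes before IDD5-A1. Rank 21 lay 91 before IDD5-B1 and rank 10 lay 109 before IDD5-D1. Another 6 lay between 199 and 640 tested genes away, from rank 12 and rank 11, both after IDD5-B1. The 5 others were more distant, at 1573, 1635 and 1850 tested genes after IDD5-A1 for ranks 19, 14 and 2, and at 1820 and 1821 after IDD5-B1 for ranks 17 and 18. Within 150 tested genes of IDD5 lay 3 of the 14 (21.4%), where 8.90% of the 10083 tested group 2 genes outside the interval did, and within 700 lay 9 (64.3%), where 40.9% did. Both distances were set with the values in view, and the shares were not tested.

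The IDD5 genes themselves did not follow the members. IDD5-A1 (TraesCS2A02G188400) had 8.73 ± 0.69 TPM (SD, n = 16) outside *idd5* and 9.22 ± 0.46 TPM (SD, n = 8) in it. IDD5-D1 (TraesCS2D02G199300) had 11.0 ± 0.84 TPM (SD, n = 16) and 11.3 ± 1.03 TPM (SD, n = 8). IDD5-B1 (TraesCS2B02G218900), whose mutation lies at a splice site, was higher in *idd5*, at 35.0 ± 1.93 TPM (SD, n = 8) against 8.87 ± 0.76 TPM (SD, n = 16). Reduced IDD5 transcript was therefore not seen at any of the 3 copies. The mutations of the A and D copies are themselves premature stops, and the paper reports that misspliced transcripts of the B copy also gain a stop.

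The genes beside the members were as a whole at the level of all genes. Around each member the 5 nearest tested genes on each side were examined, which gave 201 different genes that are not members. Their median log2 ratio of *idd5* to the 16 others was -0.04, and that of all genes tested was -0.04. Of the 201, 6 (2.99%) had a ratio of at least 1.5, where 1.59% of all genes tested did. Of those 6, 4 had a mean under 2 TPM. The *idd5* libraries were all below the others in 0 of the 201, where this holds for 0.24% of all genes tested. Members, which meet this condition by choice, were left out of the 201 but are counted among all genes. The 0 is also close to the background, so it is not a result about the neighbours. The median log2 ratio of these neighbours around single members ran from -0.23, at rank 16, to 0.12, at rank 11. Apart from the models of ranks 17 and 18 and of ranks 15 and 16, each member was at least 62 tested genes from the next.

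**Figure D3:**
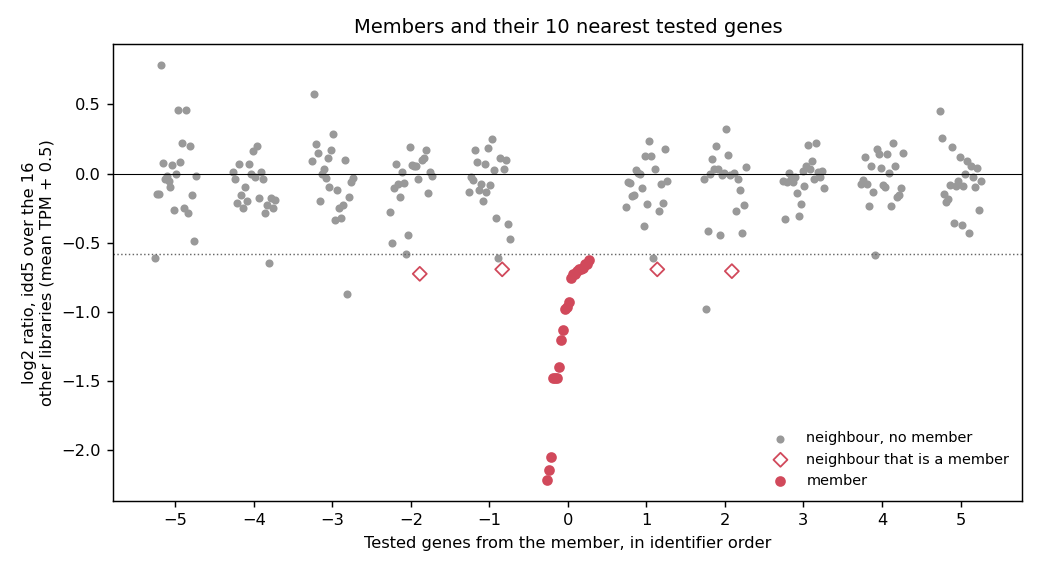
The log2 ratio of *idd5* to the 16 other libraries for each member (red, at 0) and for its 5 nearest tested genes on each side (grey, horizontal axis in tested genes), with the ratio limit of 1.5 as a dotted line. The members stand below a band of neighbours around 0, and open diamonds mark the 4 places where the neighbour is itself a member.

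RHT-D1 came closest to the members among the named genes. RHT1 genes encode the wheat DELLA proteins. RHT-D1 (TraesCS4D02G040400) had 53.8 ± 3.90 TPM (SD, n = 8) in *idd5*, with a highest value of 59.08 TPM, and 91.8 ± 18.5 TPM (SD, n = 16) elsewhere, with a lowest value of 61.52 TPM. Its ratio was 1.70. It was not chosen because its level was 1.39 times that of Cadenza in *Rht-D1b* and 1.33 times with GA3 in Cadenza. RHT-A1 and RHT-B1 had ratios of 1.27 and 1.19, and their groups overlapped.

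Libraries were compared through the median of the 22 members, each as a percentage of its mean in the 16 others. It was 50.3% ± 2.75 (SD, n = 4) in water-treated *idd5* and 46.4% ± 2.03 (SD, n = 4) in GA-treated *idd5*. Because the members were chosen to be low there, only the order among *idd5* libraries is informative, and it ran from 44.0% in GA3 replicate 1 to 53.1% in water replicate 4. In the 37 genes of the 2A interval with at least 5 TPM in Cadenza, the same median was 15.8% to 22.1% with water and 0 to 11.6% with GA3. The library with 0 was GA3 replicate 2, in which 22 of the 37 interval genes were listed at 0 TPM, while 0 of the 22 members were and their median was 45.4%. Without that library the rule gave 23 genes, 21 of them members. Between 56583 and 58700 gene models reached 0.5 TPM in a library. The *idd5* libraries resembled their group mates about equally, with median correlations across genes between 0.963 and 0.973.

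**Figure D4:**
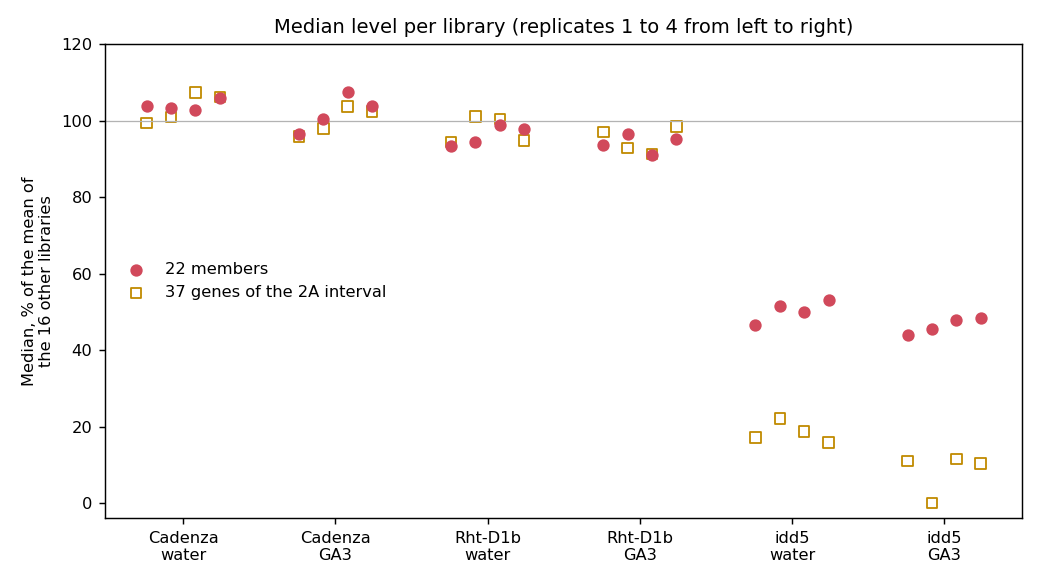
The median over the 22 members (red circles) and over 37 genes of the excluded 2A interval (open squares) in each library, as a percentage of the mean of the 16 libraries outside *idd5*. In *idd5* the members lie between 44.0% and 53.1% in all 8 libraries, whereas the interval drops to 0 in GA3 replicate 2.

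The contrast of GA3 with water within *idd5* was not itself a condition of the choice and was tested. The choice still limited it, since every *idd5* library, GA3-treated ones included, had to lie below all the others. A small or absent rise with GA3 in *idd5* is therefore partly set by the choice, as is a small fall in *Rht-D1b*. The choice also held the ratio of GA3 to water in Cadenza within 1.3-fold. At an adjusted p-value under 0.01, 0 of the 22 members passed (limma, adjusted by Benjamini-Hochberg over all genes), where 0% of the 63241 genes did. Without GA3 replicate 2 of *idd5*, 3 genes passed and 0 of them were members. The smallest adjusted p-value among the members was 0.427. At an unadjusted p-value under 0.05 there were 5 members (22.7%), where 6.67% of all genes tested reached it. Of these 5, 2 are models with the same values in every library and are not separate observations. Of the 22, 15 were lower with GA3, with a median log2 change of -0.11, against -0.03 over all genes tested, of which 57.8% were lower. The smallest change that passes depends on each gene's spread. For 57116 of the 63241 genes tested the 95% confidence interval lay within a 2-fold change in either direction. It also did so for 21 of the 22 members. The exception was TraesCS4A02G431400, with a log2 change of -0.40 and an interval from -1.22 to 0.43. The paper, which used DESeq2, did call genes for GA3 in *idd5* and in *Rht-D1b*. The 0% found in either mutant here therefore holds for this limma fit of TPM and does not mean that no gene responded.

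The 5 members with an unadjusted p-value under 0.05 were all on group 2, as were 14 of the 22 members. Nothing about position is read from this, since the 5 include the 2 neighbouring models with the same values. Rank 9, on 2D, had 21.71, 32.73, 18.51 and 26.41 TPM with water and 17.53, 17.66, 18.20 and 19.07 TPM with GA3 in *idd5*. The log2 change was -0.41 (SE 0.11, adjusted p = 0.427 from limma's test), and the groups overlapped in 1 water library (exact two-sided permutation test, p = 0.0571). Its GA3 values varied far less than its water values.

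For TraesCS2B02G500700 the mean in *idd5* was 114 ± 5.19 TPM with water and 94.2 ± 14.3 TPM with GA3 (SD, n = 4 each). The log2 change was -0.28 (SE 0.08, adjusted p = 0.524 from limma's test), and GA3 replicates 1 and 2 were the lowest. Its neighbour of rank 18 has the same values and is not a further observation. Rank 12, on 2B, had 1.83, 1.80, 1.73 and 1.67 TPM with water and 1.37, 1.38, 1.24 and 1.65 TPM with GA3. It was the only member whose *idd5* treatments did not overlap (exact two-sided permutation test, p = 0.0286, the smallest that 4 libraries against 4 allow), as 3.42% of all genes tested did not. Its log2 change was -0.24 (adjusted p = 0.706 from limma's test).

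Rank 3, on 2B, went the other way, with a mean of 3.50 ± 0.62 TPM with water and 4.47 ± 0.48 TPM with GA3 in *idd5* (SD, n = 4 each). The log2 change was 0.32 (SE 0.10, adjusted p = 0.544 from limma's test; exact two-sided permutation test, p = 0.0571). Among the other members the log2 change lay between -0.40 and 0.15.

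**Figure D5:**
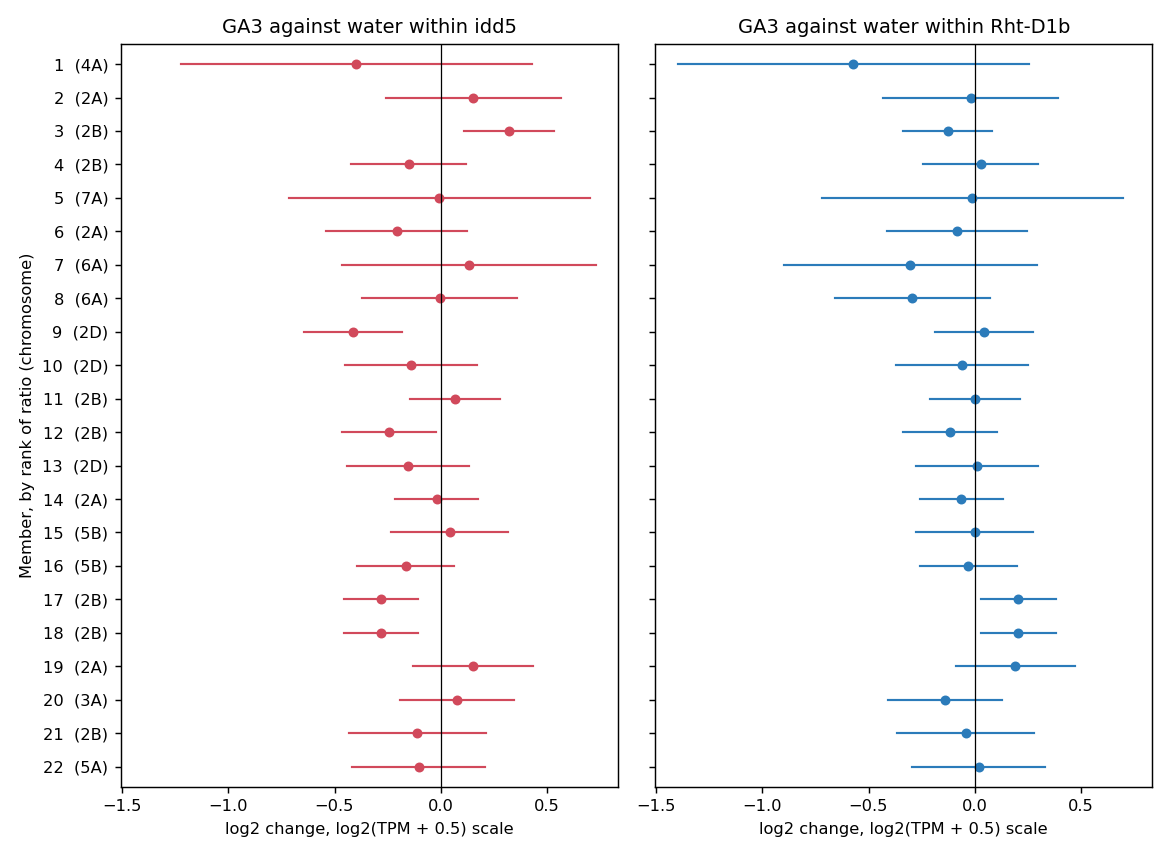
The log2 change with GA3 against water (points, with 95% confidence intervals from limma as lines) of each member within *idd5* (left) and within *Rht-D1b* (right), on the log2(TPM + 0.5) scale. Intervals of ranks 3, 9, 12, 17 and 18 leave 0 in *idd5*, and only those of ranks 17 and 18 do so in *Rht-D1b*, before adjustment over all genes.

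Within *Rht-D1b*, 0 of the 22 members passed at an adjusted p-value under 0.01 (smallest adjusted p = 0.806 from limma's test), where 0% of all genes did. At an unadjusted p-value under 0.05 there were 2, where 5.86% of all genes were. These were the 2 models with the same values, and for TraesCS2B02G500700 the log2 change was 0.21 (95% confidence interval 0.03 to 0.38), opposite in sign to that in *idd5*. Of the 22, 15 were lower with GA3, with a median log2 change of -0.02, against -0.01 over all genes tested, of which 53.1% were lower. Whether a gene responded differently in the mutants was tested as well. For TraesCS2B02G500700 the log2 change in *idd5* minus that in *Rht-D1b* was -0.49 (SE 0.12, limma, unadjusted p = 0.000513, adjusted p = 0.90). Ranks 9 and 3 followed, with differences of -0.46 (unadjusted p = 0.00833) and 0.45 (unadjusted p = 0.00488). Over all genes 0 passed (0% at an adjusted p-value under 0.01, 4.8% at an unadjusted p-value under 0.05), and 4 of the 22 members reached the latter. These 4 include the 2 models with the same values.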

How the data were processed

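Reads were trimmed (Trimmomatic 0.39) and assigned to transcripts (Kallisto) by the authors, who deposited one table of TPM with a column for each of 24 libraries. The methods and the series text name different releases of the wheat reference, and identifiers are printed as deposited. TPM keeps no read depth, so depth is unknown and precision rests on 4 replicates a group.

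The members and lists were chosen with earlier results of these data known. The choice was applied as described, and distances follow identifier order. Identifiers printed are those of the named genes, of the largest ratio and of the highest mean. Deposited values of 63241 genes that reached 0.5 TPM in 4 or more libraries were put on the scale log2(TPM + 0.5) and fitted in limma (version 3.58.1; R 4.3.3), one mean per group, with a mean-variance trend, Benjamini-Hochberg adjustment and a threshold of 0.01. limma replaced the authors' DESeq2 because counts were not used here. The fit was tested on simulated data, with a log2 change of 1 planted in *idd5* with GA3 in 200 genes of at least 2 TPM. It recovered 153 of them (76.5%) and called 0 unchanged genes, so some changes of that size would be missed. Python 3.11.15 made the tables. No identifier carries a low-confidence mark, so the setting with high-confidence models alone was not run.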

Additional observations from a re-analysis of the deposited data

Results flagged for a closer look

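In 126 sets of 4 replicates (21 different members, 6 groups), 5 single values lay far from the other 3 by Dixon's test, where chance gives about 1 in 20 sets. None was in *idd5*. The value of rank 2 in water-treated Cadenza replicate 2 was 116.26 TPM, with the others at most 94.46 TPM. Rank 9 in water-treated *Rht-D1b* replicate 4 had 40.96 TPM, with the others at least 44.15 TPM. Rank 11 in GA-treated Cadenza replicate 3 had 7.37 TPM, with the others at most 6.75 TPM. Rank 20 in GA-treated *Rht-D1b* replicate 2 had 9.34 TPM, with the others at least 10.47 TPM, and this value is the lowest of its 16. Rank 22 in GA-treated Cadenza replicate 4 had 185.56 TPM, with the others at most 124.83 TPM.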

How the results depend on the processing

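The choice gave 23 and 22 genes with 0.1 and 1 TPM added in the ratios, 25 and 18 with a minimum mean of 1 and 5 TPM, 15 and 33 with the other ratios held within 1.2-fold and 1.5-fold, and 24 with median-ratio scaling, of which 11 to 17 lay on group 2. It gave 21 to 29 genes with each library left out in turn, where the settings without a Cadenza or *Rht-D1b* library were chosen after seeing the data, and between 19 and 22 of the members were then found again. Within *idd5*, the count of all genes that passed with GA3 was 2 with no filter and 1 with no mean-variance trend, and 0 to 3 with each replicate left out, with 3 without GA3 replicate 2. It was 0 with the replicate block. Among the members 0 passed in each of these settings, in either mutant or for the difference of responses. The replicate numbers did not pair the *idd5* libraries, as the correlations of same-numbered libraries were between -0.03 and 0.15. The sign of the log2 change with GA3 in *idd5* held in every setting for 12 members and turned in at least 1 for 10. The number of reads behind each TPM is unknown, which limits the precision of low members most.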
